A study of Mus musculus with 12 samples.

Results

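The MEK inhibitor response of mouse embryonic stem (ES) cells labelled 129 was described by comparing 3 libraries of treated cells with 3 libraries of solvent-treated cells, chosen by their cell line and treatment labels. These are 6 of the 12 libraries of the series; the other 6 are the same treatments of cells labelled B6J. All cells were labelled male and were kept in serum with leukaemia inhibitory factor (LIF). For 5 days they received either DMSO or 1 µM PD 0325901, renewed daily, and RNA was then taken. Both 129 groups carry the single genotype label 129, and no allele, transgene, clone or passage is named, so 129 here means the cells used rather than the strain at large. The libraries of a group are numbered 1, 2 and 3 and are given in that order throughout. The labels do not say whether they came from separate cultures, and p-values may therefore reflect technical spread only.

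PD 0325901 blocks MEK, the kinase that phosphorylates and activates ERK. In ES cells ERK is activated mainly by FGF4 that the cells secrete themselves, and active ERK moves cells from the naive state towards the formative and primed states from which they differentiate. ERK acts through transcription factors, among them ETS family members and the serum response factor with its ETS partners, and it induces its own inhibitors: dual-specificity phosphatases (DUSPs) that dephosphorylate MAP kinases, and Sprouty and Spred proteins that act upstream of RAF. MEK inhibitors are used in naive culture media for these reasons.

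The 6 libraries held 62634533 to 82701438 counts. Levels are given as CPM, which are read counts scaled by library size and TMM factor. Changes are log2 fold changes of inhibitor over DMSO, in brackets after the levels, with ± for the standard error (SE) of the fit. A gene was called where edgeR's quasi-likelihood test gave a Benjamini-Hochberg adjusted p under 0.05 over all tested genes. The fit held no term for the replicate number (a replicate block), which was added only as an alternative. Within each group the library numbered 1 stood apart. A chi-square per degree of freedom over genes was 185.1 and 175.6 between DMSO library 1 and the other two, against 7.832 between DMSO libraries 2 and 3. In the inhibitor the values were 90.1 and 73.81, against 16.56. The first principal component of the 6 libraries, with 70% of the variance, separated the treatments, and the second, with 22.3%, separated the libraries numbered 1. Pou5f1, the pluripotency factor OCT4, was at 659.8, 803.9 and 835.4 CPM in DMSO and at 899.1, 888.6 and 872.2 CPM in the inhibitor (0.21, adjusted p = 0.0906). Its partner Sox2 was at 168.7, 221.6 and 230.5 CPM, then 321.8, 327.5 and 327.8 CPM, so the defining ES cell factors were present in every library. The male label was looked at with 2 genes chosen after their values were seen. The Y-linked Ddx3y was at 30.3, 42.15 and 29.99 CPM in DMSO and 12.29, 35.66 and 28.68 CPM in the inhibitor, and Xist, the RNA of the inactive X chromosome, was at 51.39, 38.1 and 30.72 CPM, then 48.77, 72.51 and 56.49 CPM. Both were present in all 6 libraries.

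Genes known as markers of other cell types were expressed too, and the source of this RNA was not tested. The summed level of fibroblast markers separated the groups, and that of primitive endoderm genes did not. Of 22 fibroblast markers none was at 0 in any library, and their summed level ran from 2750 to 5315 CPM in DMSO and from 6671 to 10430 CPM in the inhibitor. Of these markers 18 were called higher and 0 lower (0 lower at an unadjusted p under 0.05, and 0 with DESeq2 or limma-voom). Primitive endoderm genes summed to 16250, 2374 and 2398 CPM in DMSO and to 5469, 3940 and 4087 CPM in the inhibitor. They were highest in library 1 of each group, and the groups overlapped. In RNA from whole cultures, fewer cells of a type and less RNA per cell cannot be told apart. Results were therefore also computed with the fibroblast markers' mean log2 CPM as a covariate, and with both libraries numbered 1 left out. The marker mean was 5.766, 4.836 and 4.824 in DMSO and 6.751, 6.17 and 6.212 in the inhibitor, so it separated the treatments itself. Its effect was fitted from the spread within groups, which in 129 is mostly that of the libraries numbered 1. Changes with the covariate are therefore extrapolated beyond marker levels that the groups share.

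Of 16627 genes tested, 5930 were called in 129, which is 35.7%. Of these, 2899 were higher (17.4% of tested genes) and 3031 lower (18.2%). These shares are the background for the counts of each gene list below. The median log2 fold change over all tested genes was -0.01. Most called changes were moderate: the median size among called genes was 0.76 on the log2 scale, and 2307 changed by less than 1.5-fold. The larger the change, the more often it was a fall. A fold of 2 or more was found for 1048 called genes that rose and 1171 that fell, a fold of 4 or more for 258 and 441, and a fold of 8 or more for 80 and 156. In 7880 genes (47.4% of those tested) the 3 DMSO libraries did not overlap the 3 inhibitor libraries, 3828 of them higher and 4052 lower in the inhibitor. The summed CPM of the genes called higher grew by 67794, and that of the genes called lower shrank by 52092.

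**Figure D1:**
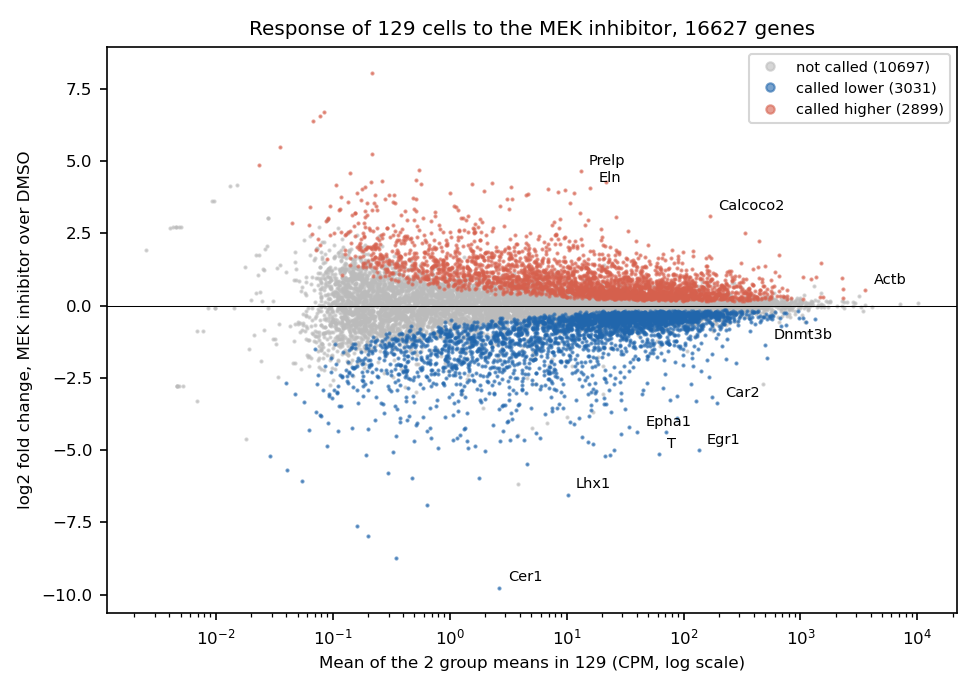
Each point is 1 of the 16627 tested genes, with the mean of the DMSO and inhibitor levels in 129 on the x axis (CPM, log scale) and the log2 fold change of inhibitor over DMSO on the y axis; orange marks the 2899 genes called higher and blue the 3031 called lower. The falls reach further from 0 than the rises among genes above 1 CPM, down to Cer1 and Lhx1.

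Genes of the pathway's negative feedback were mostly lower. Of 19 tested ERK phosphatases and feedback inhibitors, 16 were called lower and 0 higher (0 at an unadjusted p under 0.05, and 0 with DESeq2 or limma-voom). The median log2 fold change was -1.15. Dusp4, a nuclear phosphatase of ERK, was at 43.4, 32.7 and 32.3 CPM in DMSO against 6.65, 5.78 and 6.15 CPM in the inhibitor (-2.54 ± 0.14, adjusted p = 4.78e-07). Dusp6, the cytoplasmic ERK phosphatase, was at 81.9, 102 and 91.1 CPM in DMSO against 26.5, 26.1 and 27.5 CPM in the inhibitor (-1.78 ± 0.08, adjusted p = 2.38e-07). Dusp5, which holds ERK in the nucleus, was at 40.1, 41.8 and 36.8 CPM in DMSO against 12.9, 14.1 and 14.8 CPM in the inhibitor (-1.51). In none of these did the groups overlap, and for Dusp4 DMSO library 1 was above the other two. Il17rd (also called Sef), a membrane inhibitor of the pathway, fell by 1.70, and Spry4 by 1.35, Spred1 by 1.02 and Spred3 by 0.86. The phosphatases did not fall alike. Dusp1, induced by many stresses, was at 106, 107 and 98.4 CPM in DMSO against 70.9, 60.1 and 59.9 CPM in the inhibitor (-0.71), and Dusp9 was at 236, 86.4 and 89.8 CPM in DMSO against 47.1, 50.8 and 51.5 CPM in the inhibitor (-1.46), with a DMSO library 1 well above the other two (-0.82 without it). Errfi1, an inhibitor of EGF receptors, fell by 1.15.

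The immediate early genes, mostly transcription factors, switched on by ERK within minutes of a stimulus, were lower in 15 of 26 tested members. None was called higher (1 higher at an unadjusted p under 0.05, and 0 with DESeq2 or limma-voom; 2 higher without DMSO library 1 and 1 with the replicate block). The median was -0.95. Egr1 was at 189.5, 307 and 288 CPM in DMSO against 8.48, 9.9 and 6.2 CPM in the inhibitor (-4.998 ± 0.22, adjusted p = 1.88e-07), the largest fall of the list. Egr2 was at 10.7, 16.7 and 14.1 CPM in DMSO against 0.828, 1.18 and 1.26 CPM in the inhibitor (-3.66) and Egr3 at 5.41, 7.27 and 4.81 CPM in DMSO against 0.331, 0.468 and 0.267 CPM in the inhibitor (-4.04). These 3 had the largest falls of the list, and genes of AP-1 subunits had smaller ones. Fos was at 90.4, 162 and 150.4 CPM in DMSO against 31.4, 36.1 and 36.2 CPM in the inhibitor (-1.96), Jun at 63.7, 59.1 and 53.1 CPM in DMSO against 19.9, 16.7 and 16.2 CPM in the inhibitor (-1.73) and Fosb at 69.8, 95 and 83.1 CPM in DMSO against 30.1, 24.6 and 24.8 CPM in the inhibitor (-1.64). The mRNA-destabilising protein gene Zfp36 was at 71.6, 70.4 and 62.1 CPM in DMSO against 32, 25.2 and 25.3 CPM in the inhibitor (-1.31). Klf6 fell by 1.06, Maff by 1.81 and Cyr61, a secreted matrix protein, by 0.84. Srf itself, which encodes the serum response factor, was not called (139, 123 and 112 CPM in DMSO against 114, 108 and 102 CPM in the inhibitor; -0.21, adjusted p = 0.0744). It passed the threshold with the replicate block (adjusted p = 0.047) and without DMSO library 3 (0.0289), and with the fibroblast covariate (0.0189).

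Promoter sequences are shown for 5 of these genes because they hold letters bound by the factors through which ERK acts. Windows were taken from RefSeq on GRCm38.p6 and searched on both strands in the 250 bases before each start. The motifs were the CArG box of the serum response factor (CC, a run of A or T, then GG), the ETS core CGGAAG and the AP-1 element TGANTCA; none of them contains another. A CArG box stands in 1.47% of all 32851 windows, the ETS core in 13.6% and the AP-1 element in 6.75%. Counted per gene, as the members are counted here, 1.51% of the 12808 tested genes with a window held a CArG box, 25.1% the ETS core and 6.16% the AP-1 element. Each line gives the stretch of 100 bases that ends just before the start, written 5′ to 3′ on the gene's strand, with CArG boxes in capitals for the first 4 genes and the ETS core in capitals for Dusp6.
Egr2: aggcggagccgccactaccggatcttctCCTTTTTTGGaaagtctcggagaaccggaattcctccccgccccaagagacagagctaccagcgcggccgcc
Dusp5: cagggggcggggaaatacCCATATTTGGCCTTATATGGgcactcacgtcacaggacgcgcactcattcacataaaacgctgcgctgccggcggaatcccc
Srf: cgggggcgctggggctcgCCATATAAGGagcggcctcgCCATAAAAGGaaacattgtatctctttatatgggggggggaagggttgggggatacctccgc
Zfp36: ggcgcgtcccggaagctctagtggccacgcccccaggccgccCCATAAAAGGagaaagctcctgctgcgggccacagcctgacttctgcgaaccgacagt
Dusp6: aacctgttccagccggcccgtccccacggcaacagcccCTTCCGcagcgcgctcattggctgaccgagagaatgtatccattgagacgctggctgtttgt
The ETS core of Dusp6 is read on the reverse strand. The stretch of Zfp36 also holds an ETS core, upstream of its CArG box and left in lower case. They lie at chr10:67537466-67537565 (plus strand) for Egr2, chr19:53529045-53529144 (plus strand) for Dusp5, chr17:46556163-46556262 (minus strand) for Srf, chr7:28379229-28379328 (minus strand) for Zfp36 and chr10:99263131-99263230 (plus strand) for Dusp6. Egr2 has 5 windows, of which 4 hold a CArG box, and the stretch shown comes from 1 of these 4. Its box begins 72 bases before the start of that window's transcript, and that of Zfp36 begins 58 bases before its start. Dusp5 has 2 boxes end to end, beginning 82 and 72 bases before the start, and Srf has 2, beginning 82 and 62 bases before it. The ETS core of Dusp6 begins 62 bases before the start. Of the feedback genes called lower, 13 of 16 had a window; 1 held a CArG box (Dusp5), 3 the ETS core (Dusp6, Spred1 and Spred2) and 0 the AP-1 element. Spred2 (-0.55) missed the threshold without inhibitor library 1 (adjusted p = 0.0518), DMSO library 2 (0.0726) or DMSO library 3 (0.0574). Of the immediate early genes called lower, 10 of 15 had a window; 2 held a CArG box (Egr2 and Zfp36), 3 the ETS core (Fos, Egr4 and Zfp36) and 0 the AP-1 element. Srf, which holds 2 boxes, was not called in the fit of all 12 libraries without block or covariate, as given above. The shares with the ETS core in both lists lie near that of all tested genes, and these matches describe the letters of the windows only.

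Genes of the cascade itself moved in both directions. In the list of RAS, RAF, MEK and ERK cascade genes 4 of 30 tested members were called higher and 8 lower (median -0.22). Sos2, an exchange factor that loads RAS with GTP, was at 24.4, 19.7 and 19.15 CPM in DMSO against 10.4, 9.72 and 10.2 CPM in the inhibitor (-1.06 ± 0.13, adjusted p = 0.000104). Rps6ka2, an RSK kinase activated by ERK, fell by 0.51, and the adaptor Shc1 by 0.30. Against these, the RAS relative Mras was at 25.5, 24.3 and 28.3 CPM in DMSO against 75.4, 73.6 and 76.9 CPM in the inhibitor (1.53 ± 0.08, adjusted p = 4.72e-07), the largest change of the list. The adaptors Gab1 and Grb2 rose by 0.41 and 0.28. Of 16 ETS factors 3 were called higher and 1 lower. The one called lower was Etv4, a known FGF target, at 61.4, 63.9 and 65 CPM in DMSO against 34.2, 32 and 30.2 CPM in the inhibitor (-0.98). Without DMSO library 2 or 3, and with the replicate block or DESeq2, 2 were called lower, and with the fibroblast covariate 4. Elf4 rose by 0.85 and Erf, an ETS repressor that ERK exports from the nucleus, rose by 0.49. The called shares of both lists lie near the 35.7% of all tested genes.

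FGF ligands moved in both directions. Of 18 FGF genes 7 were called lower and 3 higher. Over all tested genes 18.2% were lower and 17.4% higher, so the higher count lies near that share. Fgf5, a secreted marker of the formative state, was at 46.6, 37.7 and 39 CPM in DMSO against 0.663, 1.33 and 1.36 CPM in the inhibitor (-5.20 ± 0.32, adjusted p = 8.35e-07). Fgf8, expressed in the primitive streak, was at 20.9, 39.5 and 37 CPM in DMSO against 0.331, 1.36 and 1.82 CPM in the inhibitor (-4.79). Fgf15 fell by 1.35 and Fgf13, an intracellular relative, by 1.69. Fgf4 went the other way, at 88, 93.9 and 100.1 CPM in DMSO against 216, 222 and 227 CPM in the inhibitor (1.24 ± 0.12, adjusted p = 1.65e-05), so the ligand that activates ERK in ES cells rose.

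Of 34 Wnt genes 16 were called lower and 8 higher. Wnt8a was at 20.3, 60.8 and 56.7 CPM in DMSO against 0.29, 1.58 and 1.93 CPM in the inhibitor (-5.17 ± 0.63, adjusted p = 9.05e-05) and Wnt3, which is needed to form the streak, at 24, 34.5 and 32 CPM in DMSO against 1.38, 3.27 and 2.68 CPM in the inhibitor (-3.63 ± 0.31, adjusted p = 7.98e-06). Sp5, a target gene of canonical Wnt signalling, was at 12.9, 18.4 and 17.7 CPM in DMSO against 3.84, 4.18 and 4.82 CPM in the inhibitor (-1.93), Axin2 at 35.4, 53 and 47.3 CPM in DMSO against 18.6, 25.6 and 21.7 CPM in the inhibitor (-1.04) and the receptor-degrading ligase Rnf43 at 2.33, 2.58 and 1.73 CPM in DMSO against 0.387, 0.453 and 0.46 CPM in the inhibitor (-2.35). Secreted Wnt antagonists were among the members that rose. Notum, a Wnt target whose product removes the lipid from Wnt ligands, was at 6.94, 12.8 and 10.8 CPM in DMSO against 23.5, 36.5 and 33.2 CPM in the inhibitor (1.61), and Sfrp1, which binds them, at 36, 32.4 and 35.4 CPM in DMSO against 101, 100.2 and 109.9 CPM in the inhibitor (1.58). Tcf7l1, the repressor among the TCF factors, rose by 0.64 and Ctnnb1, which encodes beta-catenin, by 0.23.

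Genes of the TGF-beta family moved in both directions. Of 18 Nodal and activin genes 6 were called lower and 2 higher (10 lower when the 6 libraries of 129 were fitted alone with the replicate block). The shares of all tested genes were 18.2% lower and 17.4% higher. Lefty1, a secreted Nodal inhibitor, was at 128, 292 and 279.6 CPM in DMSO against 41.7, 53.6 and 51.8 CPM in the inhibitor (-2.25), with DMSO library 1 lowest of its group. Skil, a SMAD repressor, fell by 1.49 and Smad4 by 0.40. Pcsk6, a protease that processes Nodal, rose by 1.11 and Gdf3 by 0.86. Of 21 BMP, SMAD and Id genes 7 were called higher and 6 lower (4 higher with the fibroblast covariate). Bmp2 was at 13.7, 4.44 and 4.01 CPM in DMSO against 1.27, 0.785 and 0.848 CPM in the inhibitor (-2.93), Bmp8b fell by 1.45 and Bmp7 by 1.11. The inhibitory SMAD gene Smad6 rose by 1.21 and Smad7 by 0.43, and Id4, a target of BMP, was at 5.76, 3.42 and 2.87 CPM in DMSO against 20.1, 13.6 and 15.4 CPM in the inhibitor (2.03).

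The primitive streak and mesendoderm genes had the lowest median of all lists, -3.24, with 17 of 22 tested members called lower and 1, Kdr, higher (none higher with the fibroblast covariate). These genes mark the first step out of pluripotency towards mesoderm and endoderm. Cer1, a secreted Nodal and BMP antagonist, had 280, 439 and 384 counts in the DMSO libraries and 1, 0 and 0 in the inhibitor libraries. The summed counts, scaled for library size, gave a DMSO level 1190 times that in the inhibitor, with a 95% exact interval of 213 to 47000 that covers counting error only and would be wider if read pairs were counted as 2 reads. T, the brachyury factor, was at 93.5, 137 and 131 CPM in DMSO against 1.19, 4.17 and 4.86 CPM in the inhibitor (-5.14 ± 0.47, adjusted p = 1.14e-05). Lhx1 was at 14.1, 22.2 and 24.1 CPM in DMSO against 0.069, 0.362 and 0.218 CPM in the inhibitor (-6.55 ± 0.46, adjusted p = 1.98e-06) and Mixl1 at 6.82, 12.8 and 11.9 CPM in DMSO against 0.469, 0.604 and 0.412 CPM in the inhibitor (-4.41 ± 0.33, adjusted p = 2.68e-06). Each of these had no library of one group within the range of the other. Eomes was at 27.4, 33.5 and 33.2 CPM in DMSO against 3.12, 3.83 and 4.63 CPM in the inhibitor (-3.02) and Cdx2 at 1.82, 2.75 and 2.08 CPM in DMSO against 0.276, 0.241 and 0.267 CPM in the inhibitor (-3.07). Foxa2, an endoderm factor, was at 22, 6.46 and 7.74 CPM in DMSO against 1.91, 0.513 and 0.291 CPM in the inhibitor (-3.74), with the library numbered 1 highest in both groups.

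**Figure D2:**
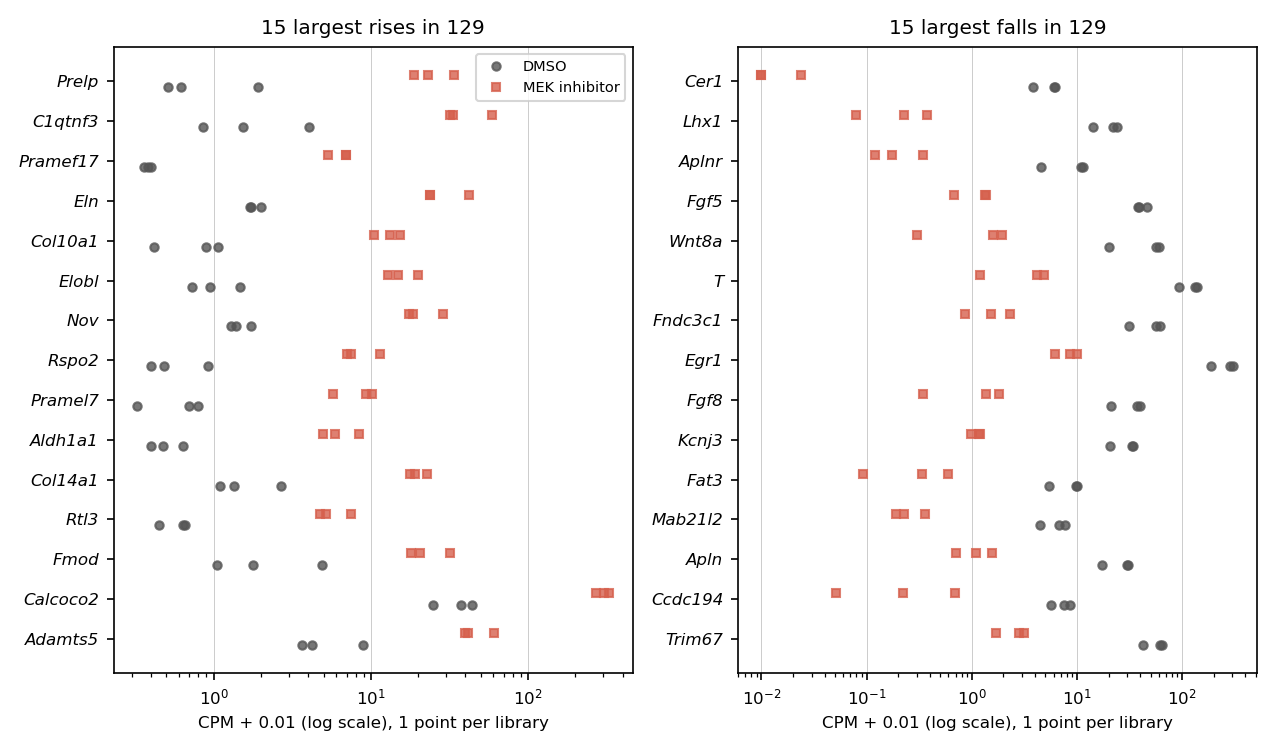
Level in each 129 library (CPM plus 0.01, log scale) of the 15 genes with the largest rise (left) and the 15 with the largest fall (right), 1 point per library, grey circles for DMSO and orange squares for the inhibitor. The groups do not overlap for any of the 30 genes, which the choice required; Cer1 was at 0 in 2 inhibitor libraries.

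Apelin, ephrin and Notch genes formed another set of cell to cell signals with more members lower (17 of 31) than higher (5), with a median of -0.46. Apln, the apelin peptide, was at 17.4, 30.6 and 29.7 CPM in DMSO against 0.69, 1.09 and 1.53 CPM in the inhibitor (-4.55 ± 0.35, adjusted p = 3.65e-06) and its receptor Aplnr at 4.56, 11.3 and 10.9 CPM in DMSO against 0.166, 0.332 and 0.109 CPM in the inhibitor (-5.48 ± 0.63, adjusted p = 6.07e-05). Epha1, an ephrin receptor, was at 62.9, 87.1 and 81 CPM in DMSO against 3.99, 3.67 and 3.4 CPM in the inhibitor (-4.38 ± 0.16, adjusted p = 8.45e-08). The ligand Efnb2 was at 70.5, 70.8 and 74.1 CPM in DMSO against 32, 27.6 and 28.7 CPM in the inhibitor (-1.29), and Epha2 at 219, 246 and 236 CPM in DMSO against 124, 139 and 129 CPM in the inhibitor (-0.84). Receptors of the same family moved in opposite directions, since Epha4 rose to 132, 161 and 159 CPM from 86.2, 88.4 and 89.9 CPM in DMSO (0.77). In the Notch pathway Notch2 fell by 0.46 and the ligand Dll3 changed by -2.001, whereas Notch1 rose by 0.49. The effector Hey2, a transcriptional repressor, rose from 3.03, 1.4 and 1.11 CPM in DMSO to 14.5, 8.07 and 6.78 CPM (2.40).

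Other large falls outside these families included Kcnj3, a potassium channel subunit, at 20.4, 33.9 and 33.5 CPM in DMSO against 1.19, 0.966 and 1.16 CPM in the inhibitor (-4.72), and Mab21l2, a developmental regulator, at 4.45, 7.66 and 6.76 CPM in DMSO against 0.345, 0.181 and 0.218 CPM in the inhibitor (-4.65). Fndc3c1 was at 31.1, 61.7 and 56 CPM in DMSO against 0.856, 2.29 and 1.5 CPM in the inhibitor (-5.01) and Trim67, a brain-enriched ubiquitin ligase, at 42.7, 64.7 and 60.9 CPM in DMSO against 1.7, 2.79 and 3.15 CPM in the inhibitor (-4.46). All 4 were lower in each inhibitor library than in any DMSO library, which the choice of the largest falls required. A pair of abundant genes lost a large part of their level: the carbonic anhydrase Car2 was at 277, 396 and 376 CPM in DMSO against 26.1, 36.6 and 38.7 CPM in the inhibitor (-3.37 ± 0.20, adjusted p = 5.93e-07), and the survival kinase Pim2 at 218, 369 and 361 CPM in DMSO against 29.9, 38.9 and 37.7 CPM in the inhibitor (-3.15 ± 0.20, adjusted p = 1.04e-06).

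Genes of simple epithelia were among those that fell. Of 29 genes of the cadherin, catenin and epithelial to mesenchymal list 13 were called lower and 6 higher. The keratin pair Krt8 and Krt18 forms the filaments of simple epithelia. Krt8 was at 405, 151 and 142 CPM in DMSO against 27.6, 22.9 and 21.1 CPM in the inhibitor (-3.29) and Krt18 at 301, 88 and 81.9 CPM in DMSO against 24.7, 14.3 and 14.6 CPM in the inhibitor (-3.14). DMSO library 1, in which primitive endoderm genes were also highest, had the highest level of both, and the other DMSO libraries were still above every inhibitor library. The claudins Cldn6 and Cldn7 build tight junctions. Cldn6 was at 180.3, 86.6 and 87.2 CPM in DMSO against 18.4, 15.8 and 15.4 CPM in the inhibitor (-2.84), and Cldn7 at 23.2, 29.7 and 28.5 CPM in DMSO against 2.87, 2.97 and 3.85 CPM in the inhibitor (-3.07). Epcam, an adhesion molecule, was at 151, 189.9 and 192 CPM in DMSO against 53.7, 57.8 and 57.6 CPM in the inhibitor (-1.65 ± 0.10, adjusted p = 5.72e-07). Esrp1, a splicing factor of epithelial transcripts, was at 87, 83 and 82.1 CPM in DMSO against 10.8, 14.2 and 13.9 CPM in the inhibitor (-2.69 ± 0.10, adjusted p = 8.45e-08). The 6 members called higher were Cdh11, Cdh13, Snai2, Zeb1, Itgb4 and Ctnnd1; of these, 1 was called higher with the fibroblast covariate, under which Snai2 changed by 0.21 and Cdh11 by 0.09. Itgb4 missed the threshold without DMSO library 1 or 2 or inhibitor library 2 or 3 (adjusted p up to 0.0949), and Ctnnd1 without DMSO library 2 or 3 or inhibitor library 1 or 3 (adjusted p up to 0.171). Cdh1, the cadherin of ES cells and epithelia, fell by 0.46 (-0.15, not called, with the covariate).

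Trophoblast genes moved in both directions, with 7 of 16 called lower and 6 higher. Besides Krt8, Krt18, Cdx2 and Eomes, the keratin Krt19 was lower, at 132, 54.5 and 50.8 CPM in DMSO against 15.5, 7.88 and 7.81 CPM in the inhibitor (-2.93). Among the higher members, Gata3 was at 0.7, 0.7 and 0.453 CPM in DMSO against 3.02, 2.94 and 3.09 CPM in the inhibitor (2.28 ± 0.21, adjusted p = 1.26e-05) and Tfap2a at 0.933, 1.04 and 1.45 CPM in DMSO against 3.34, 3.35 and 3.29 CPM in the inhibitor (1.55). Tfap2c, which also acts in naive and germ cells, rose by 0.50. The X-linked Esx1 was at 0.714, 0.616 and 0.25 CPM in DMSO against 1.6, 2.14 and 1.9 CPM in the inhibitor (1.82).

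Of the 15 largest rises, 9 were those of secreted or matrix protein genes. Prelp, a leucine-rich proteoglycan, was at 1.89, 0.504 and 0.609 CPM in DMSO against 34, 18.9 and 23.2 CPM in the inhibitor (4.65 ± 0.46, adjusted p = 2.08e-05). Eln, the elastin gene, was at 1.73, 1.69 and 1.98 CPM in DMSO against 42.1, 23.6 and 23.9 CPM in the inhibitor (4.05 ± 0.28, adjusted p = 1.56e-06). C1qtnf3, a secreted protein of the C1q and TNF family, was at 4.04, 0.84 and 1.53 CPM in DMSO against 58.6, 32 and 33.2 CPM in the inhibitor (4.27). Col10a1 and Col14a1, which encode collagen chains, rose by 4.05 and 3.55, and Adamts5, a protease that cuts proteoglycans, by 3.07. Nov, a CCN family matrix protein, was at 1.73, 1.37 and 1.28 CPM in DMSO against 28.8, 17.5 and 18.5 CPM in the inhibitor (3.88). Rspo2, a secreted enhancer of Wnt signalling, was at 0.906, 0.476 and 0.39 CPM in DMSO against 11.5, 7.06 and 7.45 CPM in the inhibitor (3.87). Among all 28 tested proteoglycan, elastic fibre and crosslinker genes, 17 were called higher and 1, Fbln1, lower (0 lower without DMSO library 3), with a median of 1.02.

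The fibroblast markers had the same median, 1.02, and the summed level of the matrix list ran from 2110 to 4270 CPM in DMSO and from 4947 to 7640 CPM in the inhibitor, highest in library 1 of each group as for the markers. With the marker mean as a covariate the matrix list had a median of 0.21, with 9 members called higher and 5 lower. Eln then changed by 3.26 (adjusted p = 0.000213), Prelp by 2.98 (adjusted p = 3.82e-05), Fmod by 1.25 (adjusted p = 0.0113) and Fbln5 by 0.86 (adjusted p = 0.000515), all called. Lox, which crosslinks collagen and elastin, changed by 1.73 without the covariate and by 0.51 with it (adjusted p = 0.106). Lum went from 2.97 to 1.51 (adjusted p = 0.0525), and Col1a1, the main chain of type I collagen, from 1.46 to 0.18 (adjusted p = 0.393). The proteoglycan gene Bgn changed by 0.98, and by -0.27 with the covariate. It missed the threshold without inhibitor library 1 (adjusted p = 0.0705), DMSO library 2 (0.0631) or DMSO library 3 (0.062). The markers themselves enter the covariate, so that their own values under it are no separate measurement. Among smooth muscle contractile genes, 3 of 15 were called higher and 0 lower, a called share under that of all tested genes. The higher count was 10 with the replicate block, 10 without DMSO library 1 and 1 without inhibitor library 1. The lower count was 0 at an unadjusted p under 0.05, with DESeq2 and with limma-voom. With the covariate 0 were higher and 12 lower.

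**Figure D3:**
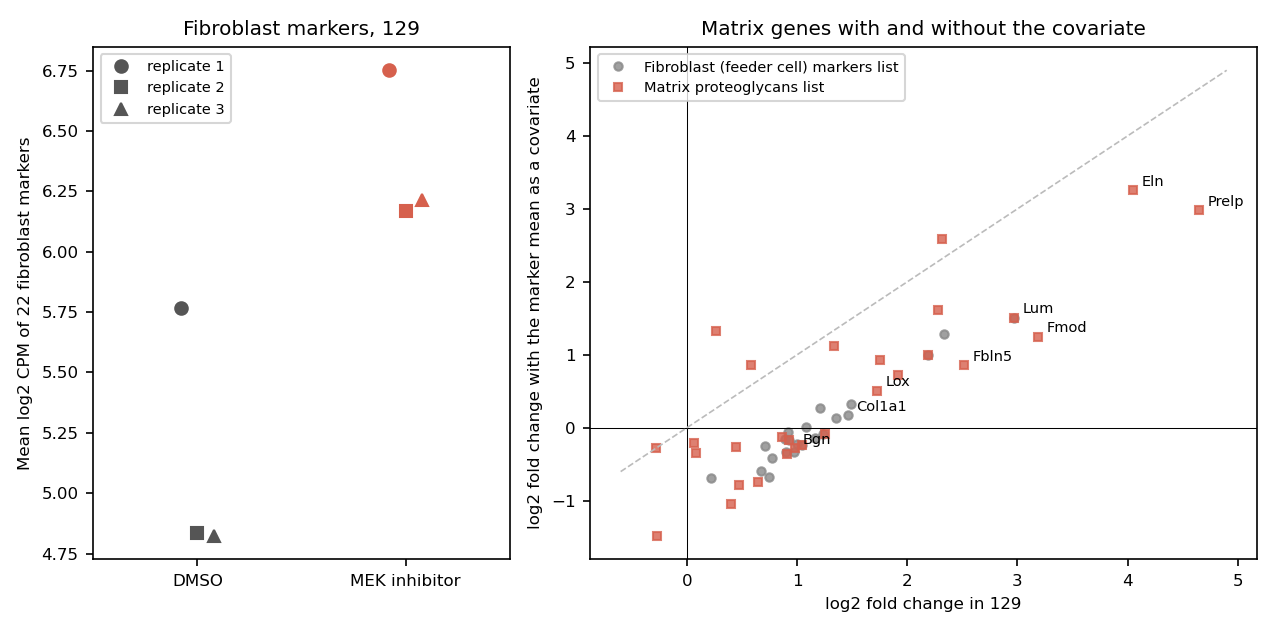
Left, the mean log2 CPM of 22 fibroblast markers in each 129 library, by treatment and replicate number. Right, the log2 fold change in 129 of each tested marker (grey circles) and matrix gene (orange squares) without (x axis) and with (y axis) that mean as a covariate, the dashed line marking equal values; Eln and Prelp have the highest values with the covariate, and Col1a1 lies near 0 on the y axis.

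Hox genes, which pattern the body axis, were called higher in 15 of 35 tested members and lower in 1, Hoxb1 (3 lower with the fibroblast covariate), with a median of 0.89 (-0.15 with the covariate). The higher count was 25 without DMSO library 1, 23 with the replicate block, 6 without inhibitor library 1, 7 without DMSO library 2, 7 without DMSO library 3 and 3 with the fibroblast covariate. Hoxb1 was not called without inhibitor library 1 or 3 or DMSO library 2 or 3 (adjusted p up to 0.0815), and its change was -8.70 without inhibitor library 2, against -4.50. Hoxc12 and Hoxc13 kept their call under every alternative. Hoxc12 was at 0.302, 0.252 and 0.203 CPM in DMSO against 1.12, 1.86 and 1.51 CPM in the inhibitor (2.56) and Hoxc13 at 3.77, 2.11 and 2.36 CPM in DMSO against 8.79, 7.5 and 7.87 CPM in the inhibitor (1.55).

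Naive pluripotency genes were higher in 20 of 22 tested members and lower in 0 (1 lower at an unadjusted p under 0.05, and 0 with DESeq2 or limma-voom; 1 without DMSO library 1), with a median of 0.85 (1.33 with the fibroblast covariate). Spic, a macrophage and ES cell ETS-domain factor, was at 1.54, 3.38 and 2.64 CPM in DMSO against 11.4, 15.2 and 14.9 CPM in the inhibitor (2.46), Tbx3 at 73, 86.3 and 88.9 CPM in DMSO against 228, 276 and 271 CPM in the inhibitor (1.64), and Esrrb, an orphan nuclear receptor, at 320.5, 420.1 and 450.2 CPM in DMSO against 672, 768 and 749 CPM in the inhibitor (0.88). Klf4 was at 169.6, 179 and 185 CPM in DMSO against 286, 306 and 278 CPM in the inhibitor (0.70). Of 14 core pluripotency genes 5 were higher (3 without inhibitor library 3, 8 with the covariate) and 1, Lin28a, lower (-0.35; 2 lower without DMSO library 1). Pou5f1 passed the threshold with the covariate alone (0.44, adjusted p = 0.0413). Formative and primed genes were lower in 19 of 27, with Foxd3 the 1 called higher (2 higher with the replicate block, DESeq2 or limma-voom and without DMSO library 1). Pou3f1, a POU factor of the primed state, was at 24.3, 33.3 and 33.3 CPM in DMSO against 3.44, 4.83 and 5.91 CPM in the inhibitor (-2.68), and Sox11 at 35.8, 56.5 and 49.2 CPM in DMSO against 7.76, 10.8 and 10.04 CPM in the inhibitor (-2.30). Among neural genes, 5 of 27 were called higher and 6 lower (3 lower with the covariate). These counts lie near the shares of all tested genes, 17.4% higher and 18.2% lower. Nes, the intermediate filament nestin, was at 253, 249.8 and 240.3 CPM in DMSO against 61.2, 68.4 and 70.7 CPM in the inhibitor (-1.89). Tubb3, a neuronal tubulin, was at 66.4, 73.4 and 69.4 CPM in DMSO against 161, 176 and 167 CPM in the inhibitor (1.27).

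The calls of primitive endoderm genes rested largely on DMSO library 1. Of 22 tested, 9 were called lower and 0 higher (0 at an unadjusted p under 0.05, and 0 with DESeq2 or limma-voom). Gata4, which directs endoderm, was at 128, 3.84 and 2.98 CPM in DMSO against 7, 1.61 and 1.95 CPM in the inhibitor, so that DMSO library 1 was far above every other library. Its log2 fold change was -3.67 (adjusted p = 0.0333), and 0.05 without that library. It missed the threshold without inhibitor library 2 (adjusted p = 0.106) or 3 (0.109). Without DMSO library 1 the list had 2 members called lower and 7 higher. It had 5 lower without inhibitor library 1, 2 without inhibitor library 2 or 3, 2 with DESeq2, 1 with limma-voom and 18 with the fibroblast covariate.

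Most antigen presentation genes were called lower. Their summed level overlapped between the groups, at 2640, 2231 and 2281 CPM in DMSO against 2336, 2051 and 2234 CPM in the inhibitor. Of 23 MHC class I and antigen presentation genes 18 were called lower and 0 higher (1 higher at an unadjusted p under 0.05, 1 with DESeq2, 0 with limma-voom, 1 with the replicate block or without inhibitor library 2 and 2 without DMSO library 1), with a median of -1.32. The immunoproteasome subunit Psmb8 was at 11.1, 25.9 and 23.6 CPM in DMSO against 0.759, 1.27 and 1.65 CPM in the inhibitor (-4.04 ± 0.38, adjusted p = 1.49e-05), the peptide transporter subunit Tap2 at 8.96, 17.2 and 15.7 CPM in DMSO against 2.9, 2.17 and 2.39 CPM in the inhibitor (-2.49), and the heavy chain H2-K1 at 41, 70.1 and 68 CPM in DMSO against 13.8, 13.9 and 12.9 CPM in the inhibitor (-2.14). In these 3 genes DMSO library 1 was the lowest of its group and still above the inhibitor libraries. MHC genes have close copies, and how the counting treated reads that match several of them is not given in the sources used here. The interferon response genes were divided: 13 of 33 were called lower and 10 higher (5 higher with the fibroblast covariate). The guanylate-binding protein gene Gbp2 was at 118, 193 and 186 CPM in DMSO against 5.98, 12.9 and 15 CPM in the inhibitor (-3.87 ± 0.33, adjusted p = 7.62e-06), and Irf1, which drives antigen presentation genes, at 48.4, 89.8 and 86.7 CPM in DMSO against 27.3, 29 and 29.4 CPM in the inhibitor (-1.39). Oasl2 was at 9.41, 21.4 and 17.9 CPM in DMSO against 2.86, 2.44 and 2.2 CPM in the inhibitor (-2.70). On the other side were Xaf1, at 17, 16.6 and 14.9 CPM in DMSO against 38, 38.6 and 42.6 CPM in the inhibitor (1.30 ± 0.10, adjusted p = 3.44e-06), and the membrane proteins Ifitm1 and Ifitm2, which rose by 0.58 and 0.83. Members of 1 response list therefore changed in opposite directions in the same libraries.

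Energy metabolism genes changed mostly by small folds. Of 74 respiratory chain subunits 24 were called higher and 0 lower (0 at an unadjusted p under 0.05, and 0 with DESeq2 or limma-voom), with a median of 0.17. The share called in either direction lies near the 35.7% of all tested genes, and 17.4% of all tested genes were higher. The higher count was 13 without DMSO library 2 and 4 with the fibroblast covariate. Atp5g1, a subunit of the ATP synthase rotor, was at 111, 129 and 132 CPM in DMSO against 201, 193 and 197 CPM in the inhibitor (0.67) and Cox5a, of cytochrome c oxidase, at 75.6, 77.5 and 87 CPM in DMSO against 128, 108 and 123 CPM in the inhibitor (0.58). Of 32 genes of glycolysis and pyruvate metabolism 12 were called lower and 8 higher (5 higher without DMSO library 2, and 3 higher and 7 lower with the covariate). Slc2a1, a glucose transporter, was at 419.5, 518 and 506 CPM in DMSO against 262, 264 and 258 CPM in the inhibitor (-0.88 ± 0.09, adjusted p = 3.05e-05). Pfkfb3, which makes an activator of glycolysis, fell by 0.81, Pdk1, a brake on pyruvate oxidation, by 0.73, and Ldha by 0.46. Other members were higher: Ldhb, the second lactate dehydrogenase chain, rose from 159.8, 170.2 and 182 CPM in DMSO to 315, 267 and 281 CPM (0.75) and Hk1, a hexokinase, from 71.8, 57 and 59.5 CPM in DMSO to 124, 126 and 125 CPM (0.99 ± 0.10, adjusted p = 2.72e-05).

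Glutathione and oxidative stress genes were higher in 11 of 28 and lower in 2, Gclc and Txnrd1 (6 lower with the covariate). Nqo1, a quinone reductase, was at 20.1, 18.1 and 18.7 CPM in DMSO against 46.4, 37.2 and 41.2 CPM in the inhibitor (1.13 ± 0.10, adjusted p = 7.88e-06), Gss, glutathione synthetase, at 33.8, 26.8 and 31.5 CPM in DMSO against 68.5, 63.1 and 62.5 CPM in the inhibitor (1.08), and Gpx1, a glutathione peroxidase, at 368, 334 and 333 CPM in DMSO against 629.7, 601 and 572 CPM in the inhibitor (0.80). Gclc, which makes the precursor of glutathione, fell by 0.50, and Txnrd1, thioredoxin reductase, by 0.40. Lysosome and autophagy genes were higher in 11 of 33 and lower in 1, Mcoln1. Their share called in either direction lies near the 35.7% of all tested genes, of which 17.4% were higher and 18.2% lower. The higher count was 20 without DMSO library 1, 7 without inhibitor library 1 or without DMSO library 2 or 3, and 5 with the covariate. The lower count was 3 with the replicate block, without inhibitor library 1 and without DMSO library 3, and 11 with the covariate. Mcoln1 missed the threshold without DMSO library 1 or 2 or inhibitor library 2 or 3 (adjusted p up to 0.101). The regulators of lysosomal genes kept their call throughout: Mitf was at 13.9, 12.9 and 12.5 CPM in DMSO against 40.3, 38.8 and 38.1 CPM in the inhibitor (1.58 ± 0.15, adjusted p = 1.94e-05) and Tfeb at 30.6, 29.1 and 30.0 CPM in DMSO against 58.7, 50.6 and 48.6 CPM in the inhibitor (0.82). Ulk1, the kinase that starts autophagy, was at 199.8, 228 and 237 CPM in DMSO against 384, 455 and 413 CPM in the inhibitor (0.92).

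Of 31 genes of cholesterol and fatty acid synthesis 19 were called lower and 0 higher (0 at an unadjusted p under 0.05, and 0 with DESeq2 or limma-voom), with a median of -0.35. With the fibroblast covariate 3 were lower. Scd2, a fatty acid desaturase, was at 820.5, 876 and 866 CPM in DMSO against 454, 544 and 566 CPM in the inhibitor (-0.71 ± 0.09, adjusted p = 8.86e-05) and kept its call under every alternative. The ATF4, amino acid and one-carbon genes had 9 of 35 members higher and 9 lower. The lower count was 3 without DMSO library 2, 4 without DMSO library 3, 5 without inhibitor library 2 or 3, and 1 with the fibroblast covariate, under which 10 were higher. Asns, asparagine synthetase, was at 375, 423 and 452 CPM in DMSO against 695, 569 and 613 CPM in the inhibitor (0.59), and the stress protein gene Nupr1 at 35.8, 27.9 and 29.6 CPM in DMSO against 111, 76.7 and 73.4 CPM in the inhibitor (1.49), while Phgdh, the first enzyme of serine synthesis, fell by 0.54.

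Cell cycle genes changed mostly by small folds. Of 31 replication licensing and fork genes 9 were called higher and 4 lower, beside 17.4% higher and 18.2% lower over all tested genes. The lower count was 2 with the replicate block and without DMSO library 2 or 3 or inhibitor library 2 or 3. It was 0 with the covariate. The helicase subunit Mcm5 was at 465, 506 and 520.4 CPM in DMSO against 596, 638 and 627 CPM in the inhibitor (0.32), and Rrm2, which makes deoxynucleotides, at 319, 306 and 322 CPM in DMSO against 405, 395 and 427 CPM in the inhibitor (0.37). Both are changes of under 1.5-fold, and no inhibitor library lay within the range of the DMSO libraries. Among 28 mitotic genes 1, Ube2c, was called higher and 2, Foxm1 and Bub1, lower (Bub1 not without inhibitor library 1, adjusted p = 0.056); with the covariate 6 were higher and 1 lower. G1 genes were called higher in 8 of 28 and lower in 8; the higher count was 4 without inhibitor library 1, 3 without DMSO library 2 and 2 with the covariate, under which 5 were lower. Ccnd3, a D-type cyclin, was at 169.5, 150.3 and 156 CPM in DMSO against 277, 261 and 245 CPM in the inhibitor (0.72 ± 0.09, adjusted p = 8.59e-05), and Cdkn1c, an imprinted CDK inhibitor, at 14.1, 19.17 and 19.5 CPM in DMSO against 8.49, 7.7 and 9.81 CPM in the inhibitor (-1.02). Of 13 MYC network genes 2 were higher and 3 lower (1 higher without inhibitor library 1 or DMSO library 3, and with the covariate), and of 77 cytosolic ribosomal protein genes 2 were higher and 0 lower (0 at an unadjusted p under 0.05, and 0 with DESeq2 or limma-voom). The higher count of ribosomal protein genes was 11 without inhibitor library 2, 0 without inhibitor library 1 or DMSO library 2, 1 without DMSO library 3, 8 with DESeq2 and 0 with the covariate. The called shares of the mitotic and ribosomal protein lists lie under that of all tested genes, and that of the MYC network near it.

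Of 25 p53 targets 10 were called higher and 4 lower (2 lower without inhibitor library 2 or 3). Fas, a death receptor, was at 3.99, 2.13 and 1.75 CPM in DMSO against 14, 9.71 and 8.12 CPM in the inhibitor (2.01 ± 0.31, adjusted p = 0.00045), and the p53 relative Trp73 at 5.46, 7.83 and 7.19 CPM in DMSO against 15.4, 18.7 and 19.4 CPM in the inhibitor (1.38 ± 0.16, adjusted p = 6.23e-05). Trp53 itself rose by 0.41 and Tigar, which lowers glycolytic flux, by 0.67, while Perp, a junction protein, fell by 0.64. In the BCL2 family 4 of 15 were higher and 4 lower (2 higher without inhibitor library 1 or without DMSO library 2 or 3, and 1 with the covariate). Bcl2l11, which encodes BIM, a death-promoting protein that ERK marks for degradation, was at 46.3, 43.9 and 43.4 CPM in DMSO against 20.5, 21.1 and 19.4 CPM in the inhibitor (-1.13 ± 0.07, adjusted p = 1.31e-06). The survival gene Bcl2 was at 5.78, 4.75 and 4.79 CPM in DMSO against 2.06, 2.01 and 2.06 CPM in the inhibitor (-1.32). Thus a member that promotes death and one that prevents it were both lower.

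Imprinted genes were lower in 19 of 50 and higher in 10 (5 higher with the covariate). Magel2 was at 6.67, 7.59 and 6.79 CPM in DMSO against 0.607, 0.694 and 0.654 CPM in the inhibitor (-3.43 ± 0.19, adjusted p = 4.66e-07) and Peg10, a retrotransposon-derived gene of placenta, at 627, 361 and 354 CPM in DMSO against 105, 111 and 118 CPM in the inhibitor (-2.002 ± 0.19, adjusted p = 1.89e-05). Dio3, which inactivates thyroid hormone, was at 3.4, 3.33 and 3.78 CPM in DMSO against 29.4, 25.9 and 26.1 CPM in the inhibitor (2.95 ± 0.13, adjusted p = 1.88e-07), the largest rise of the list. Polycomb genes were higher in 5 of 32 and lower in 4 (3 higher without DMSO or inhibitor library 2 or 3, 8 higher with both libraries numbered 1 left out, and 2 lower without inhibitor library 2 or 3). Both counts lie under the shares of all tested genes, 17.4% higher and 18.2% lower. Eed was at 174, 179.6 and 184 CPM in DMSO against 238, 219.9 and 234 CPM in the inhibitor (0.36). Rbbp7 was at 594, 505 and 529.8 CPM in DMSO against 411, 348 and 388 CPM in the inhibitor (-0.51). Among the single genes with large rises, Calcoco2, an autophagy receptor, was at 25, 37.2 and 43.9 CPM in DMSO against 272, 304 and 328 CPM in the inhibitor (3.09 ± 0.17, adjusted p = 4.66e-07), and Aldh1a1, an enzyme that makes retinoic acid, at 0.631, 0.392 and 0.468 CPM in DMSO against 8.35, 5.87 and 4.94 CPM in the inhibitor (3.68). Pramel7, of the Prame-like family, was at 0.316, 0.686 and 0.78 CPM in DMSO against 5.77, 9.27 and 10.1 CPM in the inhibitor (3.82); its family has near-identical copies, so its value is uncertain.

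**Figure D4:**
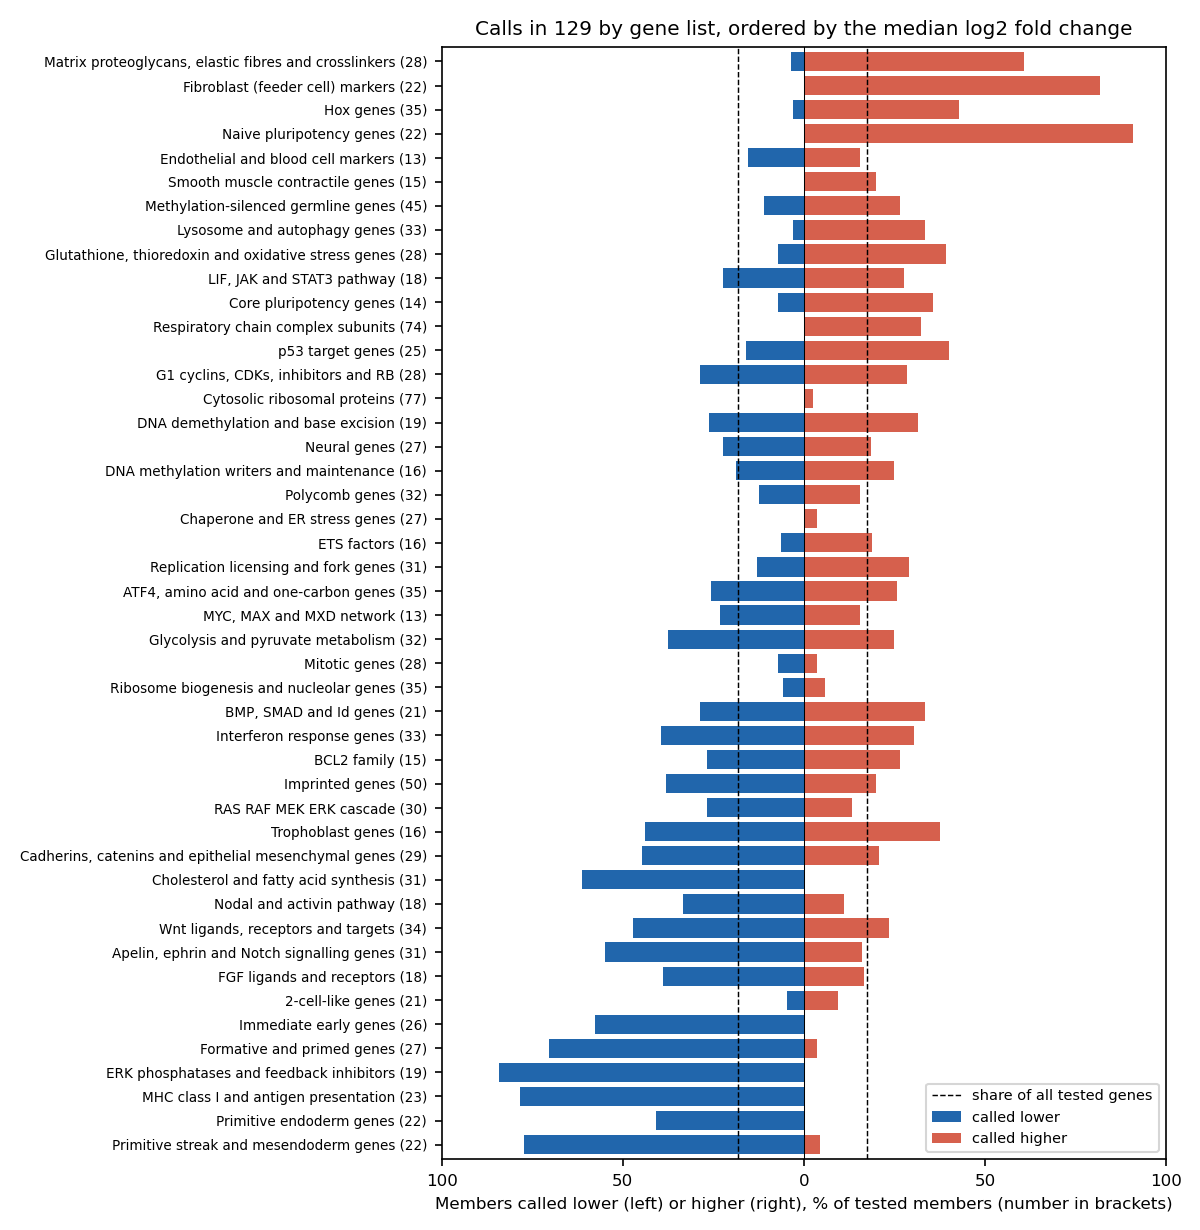
For each of 46 gene lists, the percent of tested members called lower (blue, to the left) and higher (orange, to the right) in 129, ordered by the median log2 fold change, with the number of tested members in brackets. Dashed lines mark the shares of all tested genes, 18.2% lower and 17.4% higher; the naive, fibroblast and matrix lists lie far past the line on the right and the ERK feedback, MHC class I and streak lists on the left.

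In terms of transcripts gained and lost, the leading genes were not those with the largest folds. The cytoskeletal actin gene Actb gained most CPM of the ranked genes after 2 matrix genes, going from 3014, 2825 and 2929 CPM in DMSO to 4473, 4176 and 4156 CPM (0.55 ± 0.06, adjusted p = 6.54e-05). Trim28, a corepressor that silences retroelements and protects imprints, went from 1714, 1893 and 1972 CPM in DMSO to 2824, 2788 and 2779 CPM (0.59 ± 0.08, adjusted p = 0.000145). The matrix genes ahead of Actb were Thbs1 and Col1a1. Thbs1 was at 2397, 1113 and 1139 CPM in DMSO against 3616, 2480.0 and 2848 CPM in the inhibitor (0.94, adjusted p = 0.0238). It missed the threshold without inhibitor library 1 (adjusted p = 0.0869), inhibitor library 3 (0.051), DMSO library 2 (0.0885) or DMSO library 3 (0.0861), and its log2 fold change was -0.31 with the fibroblast covariate. The largest loss among the ranked genes was that of the methyltransferase gene Dnmt3b, from 632, 772 and 764 CPM in DMSO to 249, 291 and 293 CPM (-1.38 ± 0.10, adjusted p = 2.34e-06). Ldha lost the third most of the ranked genes, from 1656, 1466 and 1535 CPM in DMSO to 1267, 1035 and 1085 CPM (-0.46).

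The share of called genes varied between chromosomes. On the X chromosome 13.5% of 592 tested genes were higher and 23.3% lower (median -0.12), and on chromosome 12 13% of 585 were higher and 23.2% lower. Chromosome 7 leaned the other way, with 21% of 1313 genes higher and 15.6% lower. Among 767 lincRNA genes 15.3% were higher and 7.3% lower, against 17.6% and 18.8% of 15836 protein-coding genes. These shares are given without a test.

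The B6J cells received the same treatment, and 5166 genes (31.1%) were called there. Of the 5930 genes called in 129, 5593 changed in the same direction in B6J, called or not. The genes higher in 129 had a median log2 fold change of 0.55 in B6J, and the genes lower in 129 one of -0.53. In both backgrounds 1731 genes were called higher and 1907 lower, and 45 were called in opposite directions. The difference between the responses, B6J minus 129, was tested as an interaction term and called for 246 genes (1.48%). Of the genes called in 129, 182 had such a called difference. The count of 246 depended on single libraries, and was 73 without inhibitor library 2 of B6J and 586 without DMSO library 1 of 129.

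Among the 22 streak genes, which had a median of -3.24 in 129 and -1.43 in B6J, 5 had a called difference, and in all 5 the change in 129 was the lower one. Lhx1 changed by -6.55 in 129 and -1.48 in B6J (difference 5.06, adjusted p = 0.00454), Apln by -4.55 and -0.81 (3.73, adjusted p = 0.00294), Eomes by -3.02 and -0.61 (2.41, adjusted p = 0.00115), and Mixl1 by -4.41 and -1.49 (2.92, adjusted p = 0.00854; adjusted p = 0.0688 with limma-voom). Several of these genes were low in B6J before treatment. In B6J Lhx1 was at 0.315, 0.409 and 0.607 CPM in DMSO against 0.203, 0.17 and 0.105 CPM in the inhibitor, against at least 14.1 CPM in each 129 DMSO library, and Mixl1 at 1.33, 1.06 and 1.15 CPM in DMSO against 0.253, 0.559 and 0.441 CPM in the inhibitor. Apln was at 2.49, 3.78 and 4.86 CPM in DMSO against 2.33, 2.03 and 1.97 CPM in the inhibitor in B6J, and Eomes at 7.42, 8.64 and 10.4 CPM in DMSO against 5.88, 5.63 and 5.81 CPM in the inhibitor. The homeobox gene Gsc was lower in 129, at 2.52, 3.91 and 3.87 CPM in DMSO against 0.966, 1.04 and 1.55 CPM in the inhibitor (-1.53), and changed by 1.75 in B6J, where it was at 0.365, 0.313 and 0.162 CPM in DMSO against 0.658, 1.22 and 0.967 CPM in the inhibitor (3.28, adjusted p = 0.00736). T, in contrast, changed by -5.14 in 129 and -5.37 in B6J (difference -0.23, SE 0.60, adjusted p = 0.916). Egr3 fell further in 129 than in B6J (-4.04 against -1.96; 2.08, adjusted p = 0.0118), as did Esrp1 (-2.69 against -1.69; 1.01, adjusted p = 0.00572). Other lists held as many called differences as the streak list. Among 23 antigen presentation genes (median -1.32 in 129 and -0.453 in B6J) 5 had one, all with the lower change in 129. Among 35 ATF4, amino acid and one-carbon genes (median 0.0473 in 129 and -0.291 in B6J) 5 had one, all with the lower change in B6J.

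Several genes were called in opposite directions in the 2 backgrounds. Sema5a, a membrane guidance protein, was at 8.58, 13.5 and 12.7 CPM in DMSO against 2.13, 2.19 and 2.53 CPM in the inhibitor in 129 (-2.34) and changed by 1.02 in B6J (3.36, adjusted p = 0.00115). The guanylate-binding protein gene Gbp4 changed by -2.24 and 1.06 (3.30, adjusted p = 0.00166), with B6J levels of 0.604, 0.614 and 0.715 CPM in DMSO against 1.43, 1.48 and 1.14 CPM in the inhibitor, and Mycl, a MYC family member, by -0.60 and 0.48 (1.08, adjusted p = 0.00227). Kbtbd11 rose in 129, at 8.64, 13.1 and 13.6 CPM in DMSO against 28.4, 35.9 and 37.1 CPM in the inhibitor (1.52), and changed by -1.51 in B6J, where it was at 0.755, 0.578 and 0.594 CPM in DMSO against 0.304, 0.231 and 0.147 CPM in the inhibitor (-3.03, adjusted p = 0.00246). Xlr3a, of a multicopy X-linked family, was not called in 129, at 11.6, 10.8 and 12.7 CPM in DMSO against 7.84, 12.1 and 12.5 CPM in the inhibitor (-0.11, adjusted p = 0.766), and changed by 4.10 in B6J, from a level near 0, at 0.0252, 0.0241 and 0.054 CPM in DMSO against 0.848, 0.341 and 0.63 CPM in the inhibitor (4.21, adjusted p = 0.0042; adjusted p = 0.0526 with limma-voom).

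The 2-cell-stage gene Zscan4c was lower in 129, at 1.28, 6.46 and 7.38 CPM in DMSO against 0.525, 2.14 and 1.67 CPM in the inhibitor (-1.80, adjusted p = 0.0339), and higher in B6J, at 0.151, 0.0963 and 0.189 CPM in DMSO against 0.898, 1.42 and 1.03 CPM in the inhibitor (2.94; difference 4.74, adjusted p = 0.0337). Its copy Zscan4d was not called in 129, at 1.17, 9.62 and 9.25 CPM in DMSO against 1.13, 3.49 and 2.93 CPM in the inhibitor (-1.41, adjusted p = 0.0928), and changed by 3.31 in B6J, at 0.227, 0.18 and 0.135 CPM in DMSO against 1.81, 2.13 and 1.49 CPM in the inhibitor (difference 4.72, adjusted p = 0.0364). Both belong to a family of near-identical copies, so their values are uncertain. St8sia2, which adds polysialic acid to proteins, was low and not called in 129, at 0.549, 1.01 and 0.811 CPM in DMSO against 0.718, 0.241 and 0.484 CPM in the inhibitor (-0.71, adjusted p = 0.193), and fell in B6J, at 5.29, 4.58 and 5.4 CPM in DMSO against 0.228, 0.559 and 0.557 CPM in the inhibitor (-3.49; difference -2.79, adjusted p = 0.0354). The difference of Zscan4c missed the threshold when any library was left out other than the 2 of 129 numbered 1 (adjusted p up to 0.0972), that of Zscan4d when any was left out other than DMSO library 1 of 129 (up to 0.103), and that of St8sia2 when any was left out other than DMSO library 1 and inhibitor library 2 of 129 (up to 0.0945). In 129 the call of Zscan4c was lost without inhibitor library 1 or 3 or DMSO library 2 or 3 (adjusted p up to 0.115) and with limma-voom (0.0882), while Zscan4d was called lower without DMSO library 1 (-1.91, adjusted p = 0.00128), with the replicate block (-1.12, adjusted p = 0.0242) and with DESeq2 (adjusted p = 0.0433). With the fibroblast covariate both turned, to 1.11 (adjusted p = 0.249) and 2.01 (adjusted p = 0.0338). St8sia2 changed by -1.09 in 129 without inhibitor library 1.

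The 2-cell-like genes, which mark a rare state of ES cell cultures, as a list had a median of -0.85 in 129, with 2 of 21 called higher and 1 lower, and of 2.44 in B6J, with 14 higher and 0 lower, and 2 of the 21 had a called difference, Zscan4c and Zscan4d. The called share in 129 lies under the 35.7% of all tested genes. With the fibroblast covariate the 129 median was 2.0, with 6 higher and 0 lower, the direction of B6J. Because the covariate separates the treatments, this value cannot show how these genes would change at equal marker levels. The lower count in 129 was 10 without DMSO library 1, 5 with the replicate block, 3 with DESeq2, and 0 with limma-voom and without inhibitor library 1 or 3 or DMSO library 2 or 3.

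**Figure D5:**
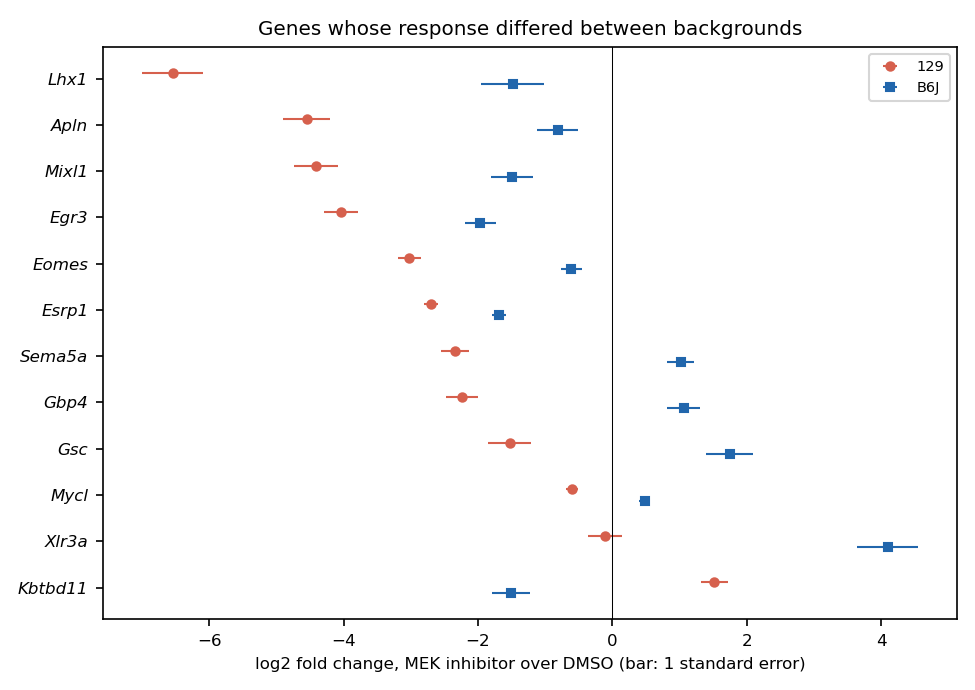
Log2 fold change of inhibitor over DMSO in 129 (orange circles) and B6J (blue squares) for 12 genes whose responses differed by the interaction test, with bars of 1 SE from 3 libraries a group. Lhx1, Apln, Mixl1, Egr3, Eomes and Esrp1 lie further left in 129, while Sema5a, Gbp4, Gsc and Mycl lie on opposite sides of 0, as does Kbtbd11 in the other order.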

How the data were processed

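RNA was measured by poly(A) RNA sequencing (Trizol extraction, TruSeq Stranded mRNA libraries, NovaSeq, per the labels' protocols). The deposited table holds whole read counts per gene for 12 libraries, made by the authors with STAR 2.7.10, HTSeq 0.6.1p1, SAMtools and DESeq on mm10 (GRCm38), per the submitters' processing notes, which give no roles; the annotation, strand setting and treatment of multiply mapped reads were not given in the sources used here. Of counts from 1 to 20, 70.09% to 73.37% per 129 library were even; halved counts were run as an alternative. Columns were assigned to groups through the table's header lines. Of 26742 genes, 26725 were found in GENCODE M21 for chromosome and biotype.

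The 4 groups of all 12 libraries were fitted together with edgeR 4.0.16 (quasi-likelihood test, TMM scaling, filterByExpr with a minimum count of 10 and minimum total of 15; limma 3.58.1, R 4.3.3), so that they share 1 estimate of spread. P-values were adjusted by the Benjamini-Hochberg method over 16627 genes, and SE is the fold change divided by the root of F. Depth was 62634533 to 82701438 counts per 129 library. The script was tested on simulated data. DESeq2 1.42.0, limma-voom, other scalings and filters, a replicate block, left-out libraries and a fibroblast covariate were alternatives. Figures were drawn with Python 3.11.15 and matplotlib 3.10.9.

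Replicate numbers paired the samples: deviations of same-numbered DMSO and inhibitor libraries from their group means correlated at 0.545, 0.571 and 0.454 over 10768 genes, against -0.608 to 0.37 for other pairs. The numbers are those of the labels.

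Genes were named by rule. The 15 largest called rises and falls in 129 were taken among genes with at least 5 CPM in the higher group, no overlap and no provisional name. The 10 largest gains and losses in CPM were taken under the same conditions, so that called genes with overlap were not ranked. Members of 46 gene lists and the 10 largest interaction terms were also named. The comparison and lists were chosen with earlier results of these data known. Promoter windows were matched by Ensembl gene identifier, otherwise by symbol, and otherwise by a synonym held by a single gene. Motif shares were not compared between call classes, because only 77% of tested genes (12808 of 16627) had a window.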

Additional observations from a re-analysis of the deposited data

Results flagged for a closer look

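The responses of 22 genes named here differed between the 2 backgrounds by the interaction test of edgeR, as log2 fold change in B6J minus that in 129. Streak and signalling genes that fell further in 129 were Lhx1 (difference 5.06), Apln (3.73), Mixl1 (2.92) and Eomes (2.41), together with the immediate early gene Egr3 (2.08), the neural progenitor factor Sox11 (1.73), Trim67 (1.54), the splicing factor Esrp1 (1.01) and Nes (0.569). Tap2 (1.49) fell by 2.49 in 129 and changed by -0.99 in B6J, and Axin2 (0.953) fell by 1.04 in 129 and changed by -0.09 in B6J.

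Opposite calls in the backgrounds were found for Sema5a (3.36), Gbp4 (3.3), Gsc (3.28), Mycl (1.08), Zscan4c (4.74) and Kbtbd11 (-3.03). Xlr3a (4.21), Zscan4d (4.72) and St8sia2 (-2.79) were called in B6J and not in 129. Gata3 (-1.68) rose by 2.28 in 129 and changed by 0.60 in B6J. Pdk1 (-0.746) fell by 0.73 in 129 and by 1.47 in B6J.

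The differences of Axin2, Gata3, Nes, Pdk1, Sox11, St8sia2, Tap2, Trim67, Zscan4c and Zscan4d each missed the threshold when at least 1 single library was left out, and those of Tap2 and St8sia2 also with the replicate block (adjusted p = 0.11 and 0.0982). With limma-voom the differences of Axin2 (adjusted p = 0.072), Tap2 (0.119), Trim67 (0.0977), Zscan4c (0.207) and Zscan4d (0.295) missed it as well. That of Axin2 also missed it in edgeR with a minimum count of 50 (adjusted p = 0.0503). Those of Mixl1 and Xlr3a missed it with limma-voom only.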

How the results depend on the processing

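The 5930 calls in 129 numbered 6216 with the replicate block and 4590 to 6671 when 1 library was left out. With the fibroblast covariate 46.5% of the 5930 remained called. The 246 called differences between backgrounds were 238 with the replicate block, 800 with DESeq2, 163 with limma-voom, 765 with the fibroblast covariate, 608 without both 129 libraries numbered 1, and 73 to 586 when 1 library was left out. The cause was not tested.

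For the genes named here, 3265 of 3347 pairs of a gene and an alternative kept the call and direction in 129, 63 lost the call, 11 gained it and 8 changed direction. The naming rules favour large changes, so this share does not hold for all called genes. Of all 5930 calls, 74.5% to 89.6% remained when 1 library of 129 was left out. With the 129 libraries fitted alone 75.3% remained. With the fibroblast covariate the log2 fold change was -0.274 for Bgn, -0.11 for Ctnnd1, 1.95 for Hoxb1, 0.109 for Spred2, -0.313 for Thbs1, 1.11 for Zscan4c and 2.01 for Zscan4d. Gata4 ran from -4.63 to 0.0468 when 1 library was left out. In the fit of all 12 libraries the replicate block changed no call in 129 of a named gene other than Srf and Zscan4d. Whole promoter windows gave the same motif counts in the feedback and immediate early lists. Genes under 1 CPM in both groups rest on few counts.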
